A study of Mus musculus with 12 samples.

Results

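Asph was the gene with the most circular RNA in these livers, and its circles are described here junction by junction. Circular RNAs (circRNAs) form when a splice donor at the end of an exon joins an acceptor upstream of it, and reads across this back-splice junction measure them. The Asph set took every junction lying inside Asph, as annotated in GENCODE M21, with at least 1 end on an exon boundary of the gene. It held 30 of the 16445 junctions deposited. All junctions inside Asph met the condition, 25 with both ends on boundaries and 5 with 1 end there. Asph was chosen by its measured level, the highest of any host: summed over junctions and averaged over 12 livers it had 934 SRPBM, against 767 SRPBM for the next host, Tlk1. SRPBM is the deposited unit, a junction read number scaled to library size. That level and the rank of the gene are therefore descriptions without a test.

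Livers came from 12 mice, of the strain that the labels write as C57BL/8, in 2 groups of 6. The 6 PZH mice received carbon tetrachloride (CCl4), which injures the liver and brings on fibrosis, and the Chinese medicine Pien Tze Huang (PZH) at 25 mg/ml once each day in weeks 2 to 8. The 6 Control mice received CCl4 alone. In both groups each injection of 10% CCl4 had a volume of 10 µl for every 10 g the mouse weighed, and injections were made 2 times weekly over 8 weeks. Livers were collected in week 8. No mice without CCl4 were analysed here, and each difference is CCl4 with PZH against CCl4.

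Depth over all junctions was 92559 to 129699 read-pair equivalents per library in PZH and 80442 to 130487 in Control. A read-pair equivalent is a value divided by the value that 1 read pair appears to be worth in its library, taking the smallest value as 2 pairs. PZH replicate 1 and Control replicate 2 listed the most abundant circRNAs at 0, with 76 and 96 of 1081, against 31 to 58 in the other libraries. A value of 0 is therefore given as "listed at 0" and not as absence. Among the hosts that mark liver cells, 12 of 13 hepatocyte genes had circRNAs (summed level 106 to 129 SRPBM in PZH and 82.1 to 185 in Control; Ttr had none). Macrophage and leukocyte hosts, 3 of 5, summed to 40.6 to 65.7 SRPBM in PZH and 34.0 to 55.6 in Control. Endothelial hosts, 3 of 4, summed to 1.70 to 9.40 SRPBM in PZH and 1.99 to 11.2 in Control. Of 6 stellate cell genes only Reln had circRNAs, at 4.12 to 11.7 SRPBM in PZH and 0 to 3.32 in Control; the part of such cells in any result below was not tested. In bulk liver, fewer cells of a type and less RNA per cell cannot be told apart.

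Asph encodes aspartate beta-hydroxylase, a membrane protein of the endoplasmic reticulum. Its carboxyl-terminal domain is a 2-oxoglutarate-dependent dioxygenase that hydroxylates aspartate and asparagine residues in EGF-like domains, which occur in Notch receptors and their ligands. The same gene makes shorter proteins without the catalytic domain by alternative splicing and polyadenylation: junctin, which anchors calsequestrin beside the calcium release channel of heart and muscle, and junctate, which takes part in calcium entry from outside the cell. The membrane-spanning segment is shared by these proteins, and the catalytic domain is encoded near the 3′ end of the gene. Circles taken from different stretches of Asph thus overlap different parts of this set of proteins.

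The gene lies on chromosome 4 (GRCm38), at 9448069 to 9669344 on the minus strand, as ENSMUSG00000028207.18. It has 15 coding transcripts, and exons are numbered here by Asph-202, the transcript of 24 exons whose boundaries matched the most junction ends. The leading circle runs from exon 2 to exon 3, chr4:9635901-9639347. If the 3228-base intron between these exons is removed, it has 219 nucleotides, 150 from exon 2 and 69 from exon 3. Its sequence is printed because it carries 80.9% of the Asph signal; it is read from GENCODE M21 transcripts, 5′ to 3′ on the minus strand of GRCm38, with the 15 bases on each side of the back-splice in capitals:
circle of exons 2 to 3: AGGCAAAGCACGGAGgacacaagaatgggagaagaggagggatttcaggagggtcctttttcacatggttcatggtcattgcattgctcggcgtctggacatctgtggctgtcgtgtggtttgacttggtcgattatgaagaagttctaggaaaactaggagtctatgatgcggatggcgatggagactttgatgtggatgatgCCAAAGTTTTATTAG

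The junction alone is shown for the 7 circRNAs with the highest mean level, so that the ends they share can be seen. In each, lower case marks the last 15 bases of the donor exon and capitals the first 15 bases of the acceptor exon, in the same build and strand. One donor, in an exon that Asph-202 lacks, is named by its position, 9630773.
exons 2 to 3: ccaaagttttattagAGGCAAAGCACGGAG
exons 4 to 13: aagacacaccaccagGCCTTAAAGAAAGAT
exons 4 to 12: gcataatctcagaagGCCTTAAAGAAAGAT
exons 16 to 20: acagagctagtgaagTGTGAAGATGACTTG
exon 2 to 9630773: cagatggtgttgatgAGGCAAAGCACGGAG
exons 16 to 17: aaggtttacgaagagTGTGAAGATGACTTG
exons 2 to 13: aagacacaccaccagAGGCAAAGCACGGAG

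These 7 junctions use 3 acceptors. The capitals beginning AGGCAAAG are the start of exon 2, those beginning GCCTTAAA the start of exon 4, and those beginning TGTGAAGA the start of exon 16. Over all 30 junctions, 6 used the acceptor of exon 2 and held 82.6% of the Asph signal, 6 used exon 4 with 14.2%, and 3 used exon 16 with 2.30%. Donors were spread more widely: exon 13 served 4 junctions (11.4%), exon 12 served 5 (3.44%) and exon 20 served 4 (1.86%). The donor of exon 3 was used by the leading circle and by no other junction.

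**Figure D1:**
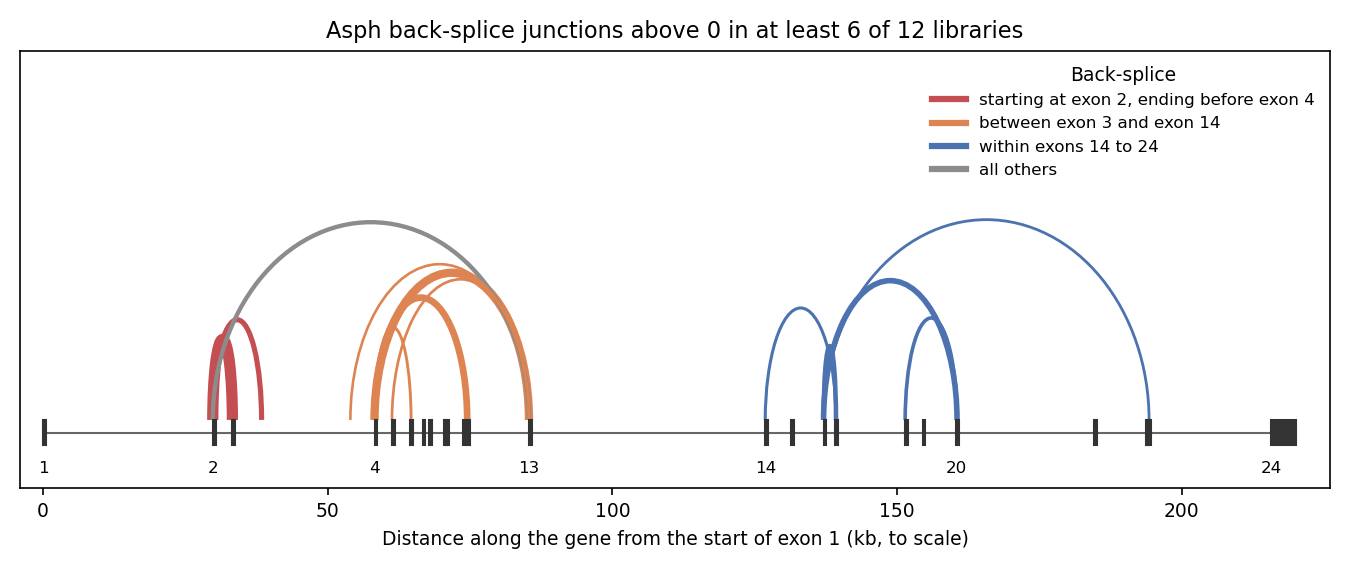
Map of the 13 Asph back-splice junctions above 0 in at least 6 of 12 libraries, with exons of Asph-202 as boxes at their distance in kb from the start of exon 1 (exons under 0.5 kb are widened to be visible). Each arc joins an acceptor to a donor, its line width grows with the logarithm of the mean SRPBM, and its height serves only to separate the arcs. Arcs fall into a cluster from exon 2 to exon 13 and a cluster from exon 14 to exon 23, and none of those drawn joins the clusters.

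Exons 2 and 3 are in 15 of the 15 coding transcripts, the widest use of any exon of Asph-202. Exon 1 is in 8 transcripts, exon 4 in 9, exon 13 in 8, and each of exons 14 to 24 in 3. The circle therefore holds sequence common to the catalytic and the short forms. In Asph-202, a protein of 741 residues, exons 2 and 3 encode residues 45 to 117. Within them lies the most hydrophobic stretch of the protein: over windows of 19 residues, the mean Kyte-Doolittle hydropathy was highest at residues 69 to 87, at 2.12, against 0.68 for the best window elsewhere. This position is that of the membrane-spanning segment, and it is encoded by the bases of exon 2 near the middle of the printed circle. The circle is 73 codons long, a whole number, and held 0 stop codons in the frame of the host; whether it is translated was not measured. The introns around it are long, 29433 bases upstream and 24962 downstream. Among circRNAs above 0 in all 12 libraries the medians were 10288 and 9349 bases, and 17.5% and 17.2% had longer introns. Its 219 nucleotides are short beside the median of 381.5 among the 1078 such circRNAs with both ends on boundaries of 1 transcript, 92.7% of which were longer. A start at exon 2 was common among these 1078 circRNAs (374, or 34.7%), and 102 of them (9.46%) ran from exon 2 to exon 3 as the Asph circle does. A junction does not show what lies inside: 3 annotated transcripts carry another coding exon of 45 bases, 9637659 to 9637703, between exons 2 and 3, and reads within the circle were not analysed here.

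The circle of exons 2 to 3 was the highest of all circRNAs in each of the 12 livers, and no difference in its level between PZH and Control livers passed the test. It had 633, 749 and 868 SRPBM as the lowest, median and highest values in PZH, and 605, 770.1 and 931 SRPBM in Control. The mean was 741 ± 87.3 SRPBM in PZH livers and 772 ± 110.4 in Control livers (SD, n = 6 each). The groups overlapped over nearly their whole range, and both the highest and the lowest liver were Control livers. The log2 fold change, PZH over Control, was -0.05 (SE 0.09, 95% interval -0.25 to 0.14, limma adjusted p = 0.930). The call depended on the filter: with every circRNA of the table in the fit, limma gave the same fold change an adjusted p of 0.0119. With the filter kept and limma run without its variance trend, the adjusted p was 0.978. An exact permutation test over assignments of the 12 livers to groups gave the same fold change p = 0.621. Depth was high for this junction, at 1860 to 2847 read-pair equivalents per library in PZH and 1710 to 2968 in Control. Its coefficient of variation over the 12 livers was 12.7%, against a median of 32.8% over the 1089 circRNAs above 0 in all libraries, 98.9% of which varied more. These 1089 include many of lower level, where counting error is larger. Circles nearest to it in level varied as little or less, at 10.5% for Tlk1, 9.92% for Rnf169 and 11.1% for Gigyf2, while Adk varied more, at 29.2%.

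The other circRNAs of the highest mean level give the scale. The circle of Tlk1, a protein kinase, also of exons 2 to 3, averaged 627 SRPBM over the 12 livers. That of exons 2 to 4 of Rnf169, a ubiquitin-binding protein of the DNA damage response, averaged 601 SRPBM. The adenosine kinase gene Adk had 360.2 SRPBM on a circle of exons 5 to 6, and exons 4 to 8 of Gigyf2, a translational repressor, 329 SRPBM. Within each liver, the Asph circle was 1.11 to 1.30 times the next circRNA in PZH and 1.07 to 1.33 times in Control. Asph was also broad: its 30 junctions were exceeded by 6 hosts. The leading circle took 80.9% of the Asph signal, while over 319 hosts with at least 5 junctions and a mean sum of at least 20 SRPBM the median share of the leading circRNA was 60.6%, and 89 hosts had a higher share than Asph.

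The next circles cover exons 4 to 13, which encode residues 118 to 309 of Asph-202, the stretch after the membrane segment. Acidic residues (aspartate and glutamate) make up 31.2% of this stretch and 17.8% of the whole protein. The circle of exons 4 to 13, chr4:9583812-9610938 and 576 nucleotides long when spliced, was the second of the gene with 10.6% of the signal. It had 73.6, 109.7 and 141 SRPBM as the lowest, median and highest values in PZH, against 76.1, 86.3 and 116 SRPBM in Control. PZH replicates 2, 3 and 6 were above every Control liver, and PZH replicates 1 and 4 were below every one. The mean was 108 ± 30.7 SRPBM in PZH livers and 90.6 ± 14.02 in Control livers (SD, n = 6 each), a log2 fold change of 0.21 (SE 0.16, 95% interval -0.13 to 0.55, limma adjusted p = 0.784). Its neighbour of exons 4 to 12, chr4:9594663-9610938 and 531 nucleotides, shares the acceptor and lacks exon 13. Its mean was 33.7 ± 7.98 SRPBM in the PZH livers and 28.3 ± 3.35 in the Control livers, a log2 fold change of 0.22 (SE 0.18, limma adjusted p = 0.786). PZH replicate 2 was highest at 47.5 SRPBM and Control replicate 6 lowest at 23.7, and the groups overlapped. The circle ending at exon 13 was higher than the one ending at exon 12 in every liver, 2.14 to 4.99 times as high in PZH and 2.60 to 3.69 times in Control.

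Circles of the 3′ exons were lower. Exons 14 to 24 encode the carboxyl-terminal 432 residues, which hold the catalytic domain, and 8 junctions lay wholly within them, with 2.84% of the Asph signal. The circle of exons 16 to 20, chr4:9508627-9532065 and 615 nucleotides, had 12.8, 15.2 and 17.5 SRPBM as the lowest, median and highest values in PZH, against 6.13, 12.1 and 23.2 SRPBM in Control. Control livers held both extremes, and the PZH livers lay within them. Its log2 fold change was 0.32 (SE 0.28, limma adjusted p = 0.816). Another, of exons 16 to 17, chr4:9529886-9532065 and 288 nucleotides, shares that acceptor. It had 4.33, 7.63 and 9.62 SRPBM in PZH, against 3.15, 5.01 and 6.30 SRPBM in Control. PZH replicates 1, 3, 4, 5 and 6 lay above every Control liver, and PZH replicate 2 lay inside the Control range. The means of 7.42 ± 1.75 SRPBM in PZH livers and 5.06 ± 1.15 in Control livers (SD, n = 6 each) gave a log2 fold change of 0.50 (SE 0.33, unadjusted p = 0.151 and adjusted p = 0.736 in limma). This was the smallest p of the Asph junctions, and it did not pass. At these levels the junction had 8.75 to 28.9 read-pair equivalents per library.

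Among the tested circles, a pair joins the acceptor of exon 2 to donors beyond exon 3. The first ends at position 9630773, inside the last exon of the short transcripts Asph-205 and Asph-217 (9629023 to 9630952), 180 bases from that exon's 5′ end. The bases after this position begin with GT, the usual start of an intron, although no annotated exon of the gene ends there. They are shown from Asph-217, with the GT in capitals, at 9630758 to 9630787:
exon end at 9630773: cagatggtgttgatgGTacgtcacagaatg
This circle was listed at 0 in PZH replicate 1 and in Control replicate 2 and was above 0 in the other 10 livers. It had 0, 12.98 and 22.3 SRPBM as the lowest, median and highest values in PZH and 0, 9.77 and 10.8 SRPBM in Control. The livers above 0 had 9.70 to 22.3 SRPBM in PZH and 3.38 to 10.8 in Control. The log2 fold change was 0.65 (SE 0.77, 95% interval -0.95 to 2.25, limma adjusted p = 0.880). It depended on the livers listed at 0, and was 1.41 without PZH replicate 1, 0.01 without Control replicate 2, and 0.78 without both (unadjusted p = 0.0315 and adjusted p = 0.6252 in limma). The other, of exons 2 to 13, chr4:9583812-9639347 and 795 nucleotides, encompasses both leading circles. It had 0, 6.24 and 12.9 SRPBM in PZH and 0, 3.19 and 10.1 SRPBM in Control, and was listed at 0 in the same pair of livers. Its log2 fold change was 0.56 (SE 0.72, limma adjusted p = 0.894), with 1.17 without PZH replicate 1, 0.06 without Control replicate 2 and 0.67 without both (limma adjusted p = 0.758). Of 447 circRNAs above 0 in 10 libraries, 18 were at 0 in exactly that pair. Of the 66 possible pairs the most common was Control replicates 2 and 6, with 20.

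**Figure D2:**
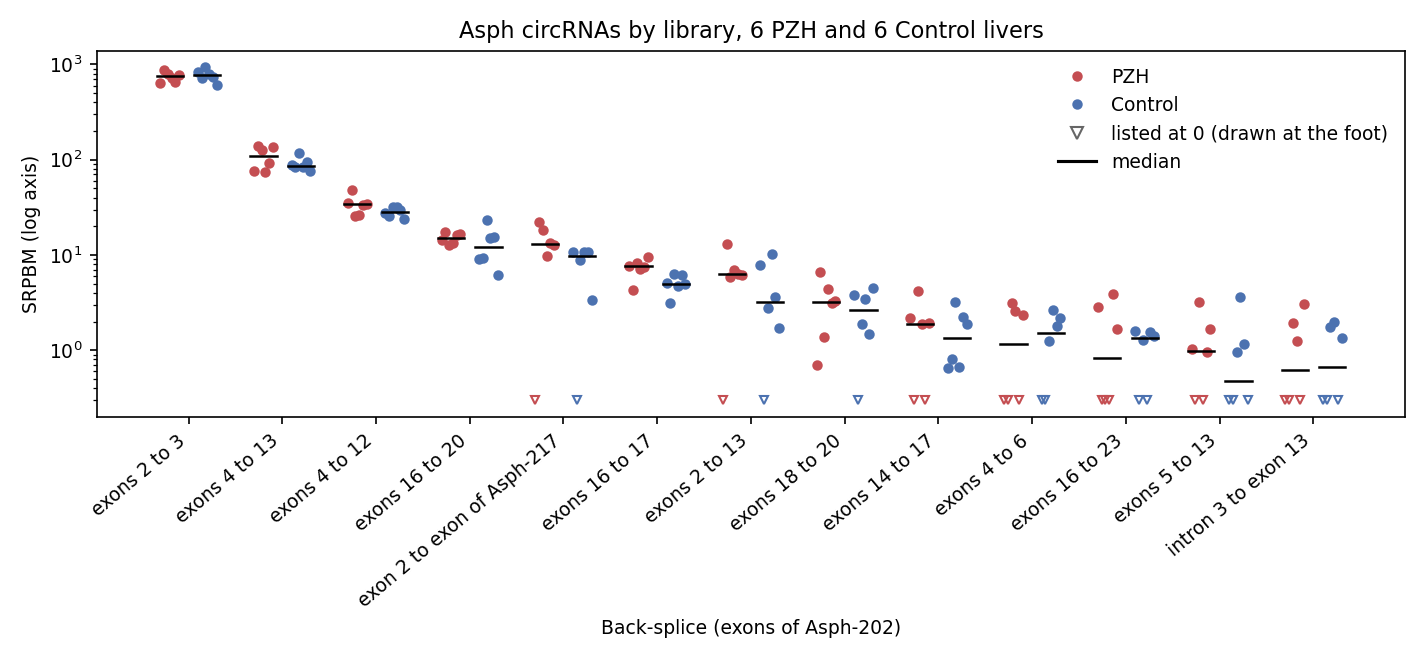
SRPBM of the 13 Asph circRNAs above 0 in at least 6 of 12 libraries, on a log axis, with 6 PZH livers left and 6 Control livers right for each. Points are livers, bars are medians, and open triangles at the foot are livers listed at 0; the circle of exons 2 to 3 lies between 605 and 931 SRPBM and no other junction exceeds 141 SRPBM.

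The remaining 6 tested junctions averaged few reads, and none exceeded 6.67 SRPBM in any liver. Exons 18 to 20 had 0.704, 3.19 and 6.67 SRPBM as the lowest, median and highest values in PZH and 0, 2.67 and 4.505 in Control. That of exons 14 to 17 reached 4.199 SRPBM in PZH and 3.23 in Control. Exons 4 to 6 reached 3.11 SRPBM in PZH and 2.67 in Control, and exons 16 to 23 reached 3.93 and 1.57. Each of the 6 shares 1 end with a circle described above. Exons 5 to 13 reached 3.21 SRPBM in PZH and 3.61 in Control. A junction from position 9615181 in intron 3 to the donor of exon 13 reached 3.03 SRPBM in PZH and 1.99 in Control. The log2 fold changes of these 6 lay between -0.16 and 0.37, with limma adjusted p-values of 0.931 to 0.990, and the sign of each turned in 1 to 8 of the settings run. For the other 17 junctions, above 0 in 1 to 5 livers, no test was made; their highest value was 7.36 SRPBM, for exons 4 to 8 in Control replicate 1.

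Over the 13 tested junctions, 0 were called at an adjusted p under 0.05 in limma, and 0 had an unadjusted p under 0.05. The 13 passed a filter that required a value above 0 in at least 6 libraries, and do not stand for all 30. Of the 3870 circRNAs tested over the table, 2 were called, a background of 0.0517%, and 292 had an unadjusted p under 0.05, or 7.55%. The fold change was positive for 10 of the 13 and negative for 3, while 54.3% of all tested circRNAs were positive. Their median log2 fold change was 0.22, against 0.06 over all tested. Over the settings run, the log2 fold change was 0.12 to 0.31 for exons 4 to 13, 0.12 to 0.30 for exons 4 to 12, 0.14 to 0.50 for exons 16 to 20 and 0.37 to 0.63 for exons 16 to 17, and none of these passed in any setting. None of the 13 had groups without overlap, against 0.672% of all tested circRNAs. The summed Asph signal was 776 to 1132 SRPBM in PZH and 734 to 1131 in Control, with means of 938 ± 131.8 and 931 ± 135.2 SRPBM (SD, n = 6 each). Its log2 fold change was 0.01 (SE 0.11, 95% interval -0.21 to 0.23, limma adjusted p = 0.982). Of 2203 host sums tested in limma, 0 were called (0%) and 181 had an unadjusted p under 0.05 (8.22%). The sign of the summed Asph change turned with scaling, to -0.03 with median-of-ratios scaling and -0.04 after scaling by summed SRPBM.

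**Figure D3:**
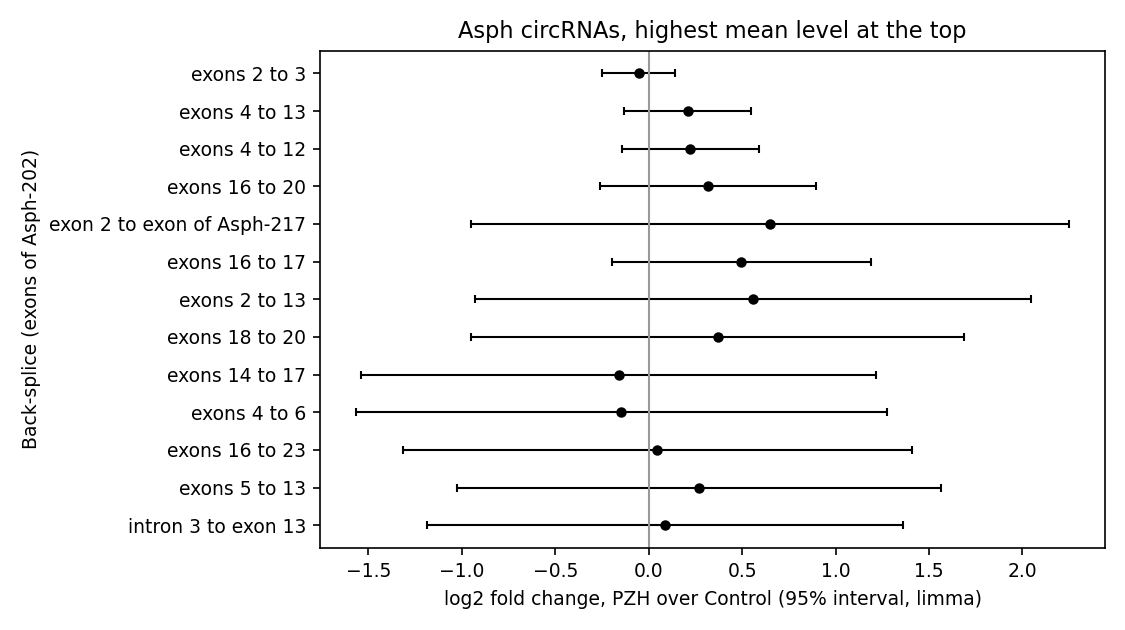
Log2 fold change, PZH over Control, of the 13 tested Asph circRNAs with 95% intervals from limma (6 livers in each group), ordered from the highest mean level at the top. All 13 intervals include 0, and the narrowest is that of the circle of exons 2 to 3, from -0.25 to 0.14.

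The makeup of the Asph signal was then compared between the groups. The share taken by the circle of exons 2 to 3 averaged 79.2 ± 2.52% in PZH livers and 82.9 ± 1.31% in Control livers (SD, n = 6 each), a difference that did not pass after adjustment. By liver the share was 81.5%, 76.7%, 78.5%, 83.0%, 78.7% and 77.0% in PZH replicates 1 to 6, against 83.7%, 85.0%, 82.3%, 82.5%, 81.3% and 82.4% in Control replicates 1 to 6. PZH replicates 2, 3, 5 and 6 lay below every Control liver, and PZH replicates 1 and 4 lay within the Control range. The difference was -3.64 percentage points, with p = 0.0195 in a 2-sided exact permutation test over 924 assignments of livers to groups. Among the 4 per-liver measures tested here, the adjusted p of this exact test was 0.0779, which did not pass. The same exact test was run for the leading circRNA of 315 hosts, those of the 319 above with signal in every liver. An unadjusted p under 0.05 was reached by 28 hosts, a background of 8.89%, and 10 hosts had a smaller p than Asph. Over these hosts the adjusted p of Asph in this exact permutation test was 0.438. The other Asph circles summed to 197 ± 48.0 SRPBM in PZH livers and 159.7 ± 27.8 in Control livers.

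Most of the signal outside the leading circle was in central and 3′ circles, and the rest was in other circles from exon 2 and in those crossing these divisions. Circles between exon 3 and exon 14 took 15.5 ± 2.07% in PZH and 13.4 ± 0.699% in Control. Circles within exons 14 to 24 took 3.19 ± 0.464% in PZH and 2.496 ± 0.597% in Control. These divisions were drawn after the junctions were seen, so the values are a description, with no test. In both, at least 5 of the 6 PZH livers were above the Control mean, and the groups overlapped.

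**Figure D4:**
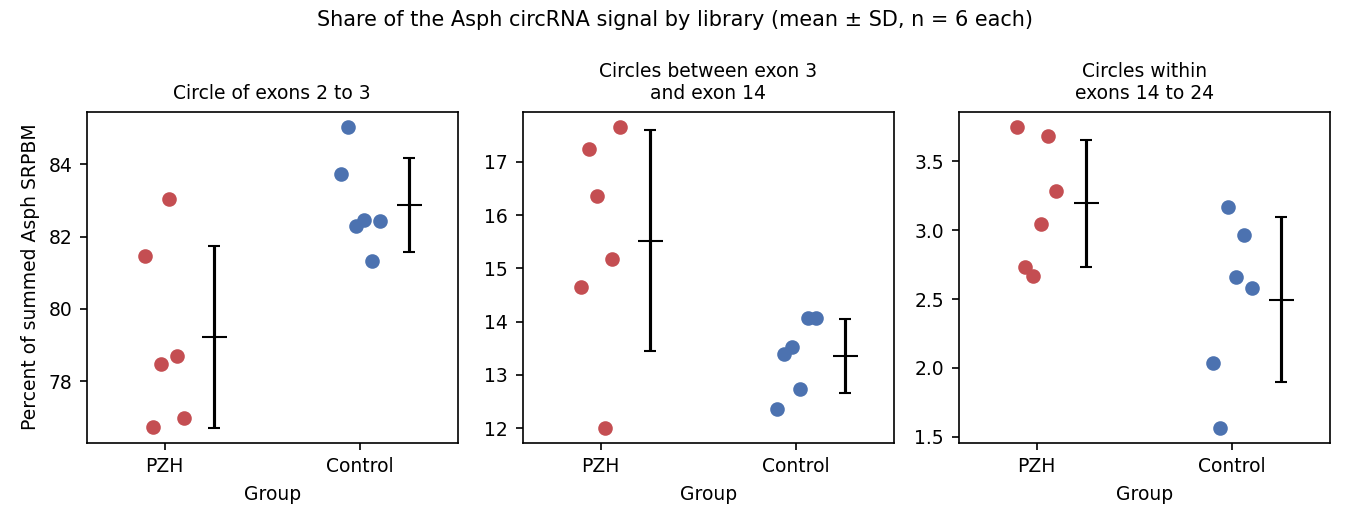
Percent of the summed Asph SRPBM in each liver taken by the circle of exons 2 to 3, by circles between exon 3 and exon 14, and by circles within exons 14 to 24 (PZH left, Control right; points are livers, bars are mean ± SD, n = 6 each). Each vertical axis covers its own range and does not start at 0; 4 PZH livers lie below the lowest Control liver in the left panel.

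None of the remaining per-liver measures passed the test with all livers in it. Asph took 2.58 ± 0.151% of all circRNA signal in PZH and 2.65 ± 0.205% in Control (exact permutation p = 0.522, n = 6 each). The number of Asph junctions above 0 was 11 to 16 per liver in PZH (mean 13.3) and 8 to 14 in Control (mean 12.2; exact permutation p = 0.457). The log2 ratio of the leading circle to the 5 other circles with its acceptor, those starting at exon 2, averaged 5.85 ± 2.03 in PZH and 6.49 ± 1.85 in Control (exact permutation p = 0.459, n = 6 each). In this ratio PZH replicate 1 and Control replicate 2 stand apart, because circles sharing the acceptor were listed at 0 there and the pseudocount set the value. Without both livers the difference was -0.74 (unadjusted exact permutation p = 0.0159, n = 5 each). Both were left out after the data were seen, and they stand apart in this same ratio. That p therefore cannot serve as a test of the groups. Without PZH replicate 1 alone the difference was -1.47 (unadjusted exact permutation p = 0.0368), and without Control replicate 2 alone 0.08 (unadjusted exact permutation p = 0.998).

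Across the 12 livers, the level of the leading circle and the sum of the other Asph circles were related, with Pearson's r = 0.636 (permutation p = 0.0275) and Spearman's rho = 0.664 (permutation p = 0.0211). No other pair of measures was tested for correlation. The correlations of the leading circle with other circRNAs and with the library sum, given below, carry no test. Within PZH, r was 0.885 (exact permutation p = 0.0222) and rho 0.886 (exact permutation p = 0.0333). Within Control, r was 0.863 (exact permutation p = 0.0417) and rho 0.771 (exact permutation p = 0.103, n = 6). Without Control replicates 3 and 6, the livers farthest from the median of the leading circle, r was 0.604 and of similar size, but no longer passed (permutation p = 0.0617, 10 livers). It also did not pass without PZH replicate 2 alone (r = 0.561, permutation p = 0.0749) or Control replicate 6 alone (r = 0.561, permutation p = 0.0741). Both measures carry the scaling of their library: after division by the summed SRPBM, r was -0.168 (permutation p = 0.636).

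The circRNAs of other hosts whose level followed the Asph circle most closely over the 12 livers are given as a description. Pearson's r of log2 SRPBM was 0.913 for exons 5 to 6 of Adk, 0.886 for exons 6 to 7 of Mitf, 0.866 for exons 3 to 5 of Chd2, 0.852 for exons 21 to 25 of Kmt2c and 0.845 for exon 5 of Tnrc6a. Mitf encodes a transcription factor, Chd2 a chromatin remodeller, Kmt2c a histone methyltransferase and Tnrc6a a protein of microRNA silencing. The median over 1084 circRNAs above 0 in all livers was 0.272, and the Asph circle followed the summed SRPBM of the library with r = 0.802. After scaling to that sum, r was 0.775 for Adk, 0.688 for Mitf, 0.597 for Chd2, 0.418 for Kmt2c and 0.346 for Tnrc6a, with a median of 0.04 over all.

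CircRNAs from genes that share a function with ASPH were read from the same fit, and limma called 0 of 48 tested, against 0.0517% of all circRNAs tested. An unadjusted p under 0.05 was found for 2 of the 48, against 7.55% of all tested, and the signs below stand beside 54.3% positive over all tested. Among 30 other 2-oxoglutarate-dependent hydroxylases, 11 had circRNAs, and 11 circRNAs of 6 genes were tested. Of these circRNAs, 9 had a positive and 2 a negative fold change (median log2 fold change 0.47, against 0.06 over all tested). Exons 19 to 20 of the histone demethylase gene Kdm2a had 13.7 ± 3.93 SRPBM in PZH livers and 11.8 ± 4.41 in Control livers (SD, n = 6 each). Exons 4 to 8 of Kdm4c, another histone demethylase gene, were above 0 in 6 PZH and 4 Control livers (log2 fold change 1.43, limma adjusted p = 0.624). Exons 4 to 5 of Phyhd1 were above 0 in 4 PZH and 6 Control livers (log2 fold change -1.24, limma adjusted p = 0.654). Among 26 genes of the Notch pathway and of EGF-domain modification, 9 circRNAs of 5 genes were tested, 5 positive and 4 negative (median 0.34). Exons 3 to 4 of Itch, a ubiquitin ligase acting on Notch, had 6.00 ± 1.898 SRPBM in PZH livers and 8.93 ± 2.08 in Control livers (SD, n = 6 each; log2 fold change -0.55, limma adjusted p = 0.706). Exons 3 to 5 of Numb, a Notch inhibitor, were above 0 in 4 PZH and 5 Control livers (log2 fold change -1.08, limma adjusted p = 0.743).

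Proteins with EGF-like domains include possible substrates of the enzyme, and 4 of their 22 genes gave 8 tested circRNAs. Of these circRNAs, 5 were positive and 3 negative (median log2 fold change 0.58). The highest was exon 2 of Lrp6, a Wnt co-receptor, at 25.2 to 46.4 SRPBM in PZH and 0 to 55.9 in Control (log2 fold change 0.78, limma adjusted p = 0.836). Exons 4 to 7 of Lrp6 had 22.3 ± 5.79 SRPBM in PZH livers and 16.95 ± 8.59 in Control livers (SD, n = 6 each; limma adjusted p = 0.710). Exons 4 to 8 of Reln, which is also in the stellate list, were above 0 in 5 PZH and 3 Control livers (log2 fold change 1.11, limma adjusted p = 0.718). The short proteins act in calcium handling in the endoplasmic reticulum and in calcium entry from outside the cell. Of 20 genes listed for these, 5 gave 20 tested circRNAs, 11 positive and 9 negative (median 0.11). Exons 5 to 7 of the chaperone gene Canx had 25.3 ± 4.24 SRPBM in PZH livers and 22.0 ± 6.16 in Control livers (SD, n = 6 each; limma adjusted p = 0.835). Itpr2, a calcium release channel, gave values in both directions: exons 25 to 26 were above 0 in 5 PZH livers and 1 Control liver (log2 fold change 1.43, limma adjusted p = 0.566), and exons 3 to 9 in 2 PZH and 6 Control livers (log2 fold change -1.298, limma adjusted p = 0.686). The striated muscle genes that act with junctin, including Ryr1, Ryr2, Casq2 and Trdn, had no circRNA in the table, and of 7 muscle genes Neb alone had one, at 0 SRPBM in PZH and at most 1.08 in Control.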

How the data were processed

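Per the labels' protocols, Trizol was used to extract liver RNA, a TruSeq RNA kit to make libraries and an Illumina HiSeq to sequence them. Trim Galore and STAR were used with GRCm38 (mm10), per the submitters' processing notes; their versions, the circRNA caller and filters, and how SRPBM was calculated, are not stated in those notes. The authors deposited 1 table of signal in SRPBM, 16445 junctions in 12 libraries, without gene names. Hosts were assigned here from exon boundaries of GENCODE M21, and 15737 junctions (95.7%) had both ends on boundaries of 1 gene. Among low values, 56.8% to 63.8% per library lay near whole read pairs, so counts could not be recovered and no count model was used. Read-pair equivalents speak to counting error only. The SEs and intervals of fold changes come from limma. They rest on the spread between livers after limma drew it toward a trend over all circRNAs in the fit. They can therefore be wider or narrower than the livers of 1 circRNA alone would give.

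Testing required a value above 0 in 6 or more of the 12 libraries and used log2(SRPBM + 0.636), the pseudocount being the median of the libraries' smallest values, with limma 3.58.1 in R 4.3.3 (variance trend, 2-sided, Benjamini-Hochberg over all 3870, threshold 0.05). This scale understates changes of low circRNAs. Per-liver measures had exact permutation tests; the correlation over 12 livers had 100000 resamples. Python 3.11.15, numpy 2.4.6, pandas 2.3.3, scipy 1.17.1 and matplotlib 3.10.9 were used. The fit was tested on simulated data that held no value of 0, so that test does not cover circRNAs listed at 0. The labels describe separate mice, and each library was 1 replicate. Exon numbers and sequences of Asph are from GENCODE M21 transcripts; intron sequence was not used here.

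The members, gene lists, tests and settings were chosen with earlier results of these data known. The rule for named circRNAs took every Asph junction above 0 in at least 6 libraries, the 5 circRNAs of other hosts most correlated with the leading circle, the 5 of highest mean, and in each list the highest and those with the smallest p in either direction. Alternatives were other pseudocounts, filters, scalings, library weights, a replicate block and leaving out each library; leaving out PZH replicate 1 with Control replicate 2, and the comparison of the leading share over 315 hosts, were added after seeing the data.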

Additional observations from a re-analysis of the deposited data

Results flagged for a closer look

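In 3 of 42 groups of 6 livers, 1 liver lay farther from the rest than a Dixon test at the 95% level allows, and chance gives about 1 group in 20. The circle of exons 5 to 13 had 3.61 SRPBM in Control replicate 4, against 0 to 1.18 in the other Control livers. The log2 ratio of the leading circle to the circles sharing its acceptor was 9.96 in PZH replicate 1, against 4.56 to 5.39 in the other PZH livers. The same ratio was 10.2 in Control replicate 2, against 5.22 to 6.35 in the other Control livers. In both of these livers the circles sharing the acceptor were listed at 0.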

How the results depend on the processing

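Calls over the table numbered 2 and were few under any setting: 6 when 3 libraries above 0 sufficed, 10 when all 12 were required, 30 without a filter, 1 with a replicate block, and 1 to 3 when each library was left out. Without PZH replicate 1 and Control replicate 2 limma made 0 calls, with 241 of 3393 at an unadjusted p under 0.05. Calls among Asph junctions stayed at 0 except without a filter, where 1, the leading circle at -0.0546, passed; the cause was not tested. Its fold change was -0.12 to 0.0020 when each library was left out, above 0 without Control replicate 3. With median-of-ratios scaling it was -0.0949 (SE 0.0514, unadjusted p = 0.0793 and adjusted p = 0.629 in limma). After scaling by summed SRPBM it was -0.101 (SE 0.0535, unadjusted p = 0.0734 and adjusted p = 0.620 in limma). The summed Asph change was -0.0296 with median-of-ratios scaling, -0.0357 after scaling by summed SRPBM, -0.0057 with library weights and -0.0555 to 0.0693 when each library was left out. The share of the leading circle differed by -4.41 to -3.15 points when each library was left out (unadjusted exact permutation p 0.00433 to 0.0346). With all livers the adjusted p of this exact test was 0.0779 over the 4 measures and 0.438 over 315 hosts, and did not pass. The Asph share of all signal differed by -0.123 to -0.00892 points, and by 0.0141 without PZH replicate 1 and Control replicate 2. The difference in junctions per liver was 0.333 to 1.63. The log2 ratio to circles sharing the acceptor differed by -1.47 to 0.0837, and by -0.74 without both livers. The correlation of the leading circle with the others was 0.561 to 0.692, 0.598 without both livers and -0.168 after scaling by summed SRPBM. Calls in the related lists were 0 in every setting run.

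Same-numbered PZH and Control livers were not especially alike. Their deviations correlated at -0.122 to 0.03, 0 of 6 over 0.1, and in 0 of 6 was the same number the best match. Whether the numbers mark a shared batch was not tested. With same-numbered livers taken as pairs, the share of the leading circle differed by -3.64 points (p = 0.0625, exact test flipping the signs of the 6 pair differences). This test has fewer arrangements than the 924 assignments used above, so the p-values of these tests are not directly comparable. With a replicate block in limma, calls over the table numbered 1. No other junction shares the donor of the leading circle, so a planned ratio to such circles was not run. Depth limits the 6 lowest tested junctions, at 0 to 21.9 read-pair equivalents per library.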

Other observations

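Of the 17 Asph junctions left untested, 13 were above 0 in a single liver, 10 of them in PZH livers and 3 in Control livers, at 0.634 to 1.44 SRPBM. Most of the 10 were in PZH replicates 2 and 3, at 129699 and 118912 read-pair equivalents over all junctions. Over the table, 7262 of 16445 circRNAs were above 0 in 1 library. How these split between the groups was not counted, so the Asph split shows no difference between groups. Intron 3 gave 3 junctions at positions that no annotated exon of the gene uses: 9615181 was the acceptor of 2 junctions, ending at exon 13 and exon 12, and 9615104 was the donor of 1, starting at exon 2. The positions enclose 78 bases. The acceptor was seen in 6 livers, 3 PZH and 3 Control, and the donor in PZH replicate 2. One further junction, in PZH replicate 2 alone, began 31 bases inside exon 2, at 9639316, and ended at exon 11. Linear Asph transcripts were not analysed here, so none of these levels was set against linear splicing.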
